A study of Oryza sativa with 26 samples.

Results

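Expansins were followed through rice (Oryza sativa) anther development in 7 genes, the beta-expansins EXPB2, EXPB4, EXPB7, EXPB8, EXPB9 and EXPB10 and the alpha-expansin EXPA32. They were taken by name from the array's gene table through RefSeq gene names, and each is read by 1 probe set. Their gene identifiers are LOC4349348 (EXPB2), LOC4349350 (EXPB4), LOC4331300 (EXPB7), LOC4331298 (EXPB8), LOC4349301 (EXPB9), LOC4331325 (EXPB10) and LOC4346331 (EXPA32). They are 7 of the 29 expansin genes with a probe set, and of 17905 genes read by probe sets that name a single gene. The 7 were chosen by their measured levels over the same 26 arrays, as genes high in meiotic anthers or in pollen. Their stage values are therefore given as a description with no test, and tests are given for the 22 other expansins.

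Expansins are secreted proteins that loosen plant cell walls without cutting their polymers, and so let cells enlarge. Alpha-expansins act on the cellulose and xyloglucan network. Beta-expansins are numerous in grasses, and some are released in large amounts by grass pollen, where they are known as allergens and soften the walls of the stigma and style ahead of the pollen tube.

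The 26 Affymetrix Rice Genome Arrays cover 8 stages of whole anthers from plants grown in paddy fields under normal conditions, and no cultivar is given. An1 is the stage of archesporial cell formation and Mei1 that of pollen mother cells in premeiotic S or G2 phase, with 3 arrays each. At M1 the meiocytes are in leptotene (4 arrays). At M2 they pass through zygotene and pachytene (3 arrays), and M3 runs from diplotene to the tetrad (4 arrays). P1 anthers hold uninucleate gametophytes, P2 bicellular ones and P3 mature tricellular pollen, with 3 arrays each. Replicates are biological according to the titles, which name no plants, so the p-values measure the spread between these arrays. A level is the deposited intensity, on a scale where every array has its 75th percentile at 1, and the array medians ran from 0.241 to 0.428. The number of arrays limits the precision.

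The stage labels were set against marker genes. The 4 measured germ-cell and meiosis markers (of 10 listed) summed to 49.2 to 56.7 in An1 and Mei1, 18.8 to 33.2 in M1, 5.36 to 9.78 in M2 and M3, 4.39 to 7.17 in P1 and P2, and 1.38 to 1.97 in P3. MEL1, an Argonaute of germ cells, went from 45.8 ± 2.39 in An1 (SD, n = 3) to 15.99 ± 5.77 in M1 (SD, n = 4), while the meiosis genes PAIR2 and DMC1B had their highest stage means in Mei1 (9.04 ± 0.514, SD, n = 3) and M1 (1.80 ± 0.620, SD, n = 4). The remaining meiosis gene, PAIR1, was instead highest in An1 (0.559) and lower in Mei1 (0.454) and M1 (0.406). In An1 and Mei1 the sum was mostly MEL1, so it says little about the meiotic labels. The summed level of the 8 measured tapetum markers (of 10) was highest in M3 and P1 (349 to 488). Their sums in An1 (4.06 to 6.295) and P3 (3.05 to 5.34) overlapped. The sum hides differences between the P1 arrays. On P1 replicates 1, 2 and 3 RTS read 3.87, 97.8 and 156, CYP703A3 54.7, 44.2 and 4.04, and PTC1 2.43, 1.26 and 0.354. CP1, EAT1, TDR and C4 were also lowest on replicate 3, and C6, like RTS, on replicate 1. The 2 measured late-pollen markers (of 8), ADF1 and CPK21, summed to at most 1.96 up to P1, to 20.3 to 74.7 in P2 and to 48.5 to 374 in P3. The 2 measured markers of green tissue (of 7) summed to 6.56 to 88.1 up to P2 and to 1.499 to 2.74 in P3. No marker was listed at 0. Small heat shock protein genes (13 measured) stood out on M2 replicate 2 (321) and P3 replicate 1 (233), against at most 93.2 elsewhere. P3 replicate 1 correlated with the other P3 arrays at a mean r of 0.854 and with P2 replicate 3 at 0.899 across probe sets.

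The members had 3 kinds of profile. EXPB9, EXPB10, EXPA32 and EXPB2 were near the bottom of the intensity scale until P1 and high in P2 and P3, and EXPB8 was high in P3 alone. EXPB7 was measured through meiosis, peaked in M3 and was low in P2 and P3. EXPB4 read 6.09 or above on every array. All arrays of P2 and P3 lay above all 20 earlier arrays for 4 of the 7 genes, which also holds for 4.38% of the probe sets tested. The P2 arrays lay above the P1 arrays for the same 4 genes, as for 20% of probe sets. These shares are given for reference only, since the pattern chose the genes. In whole anthers, a change in the share of cells that hold a transcript and a change in its amount per cell cannot be told apart.

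**Figure D1:**
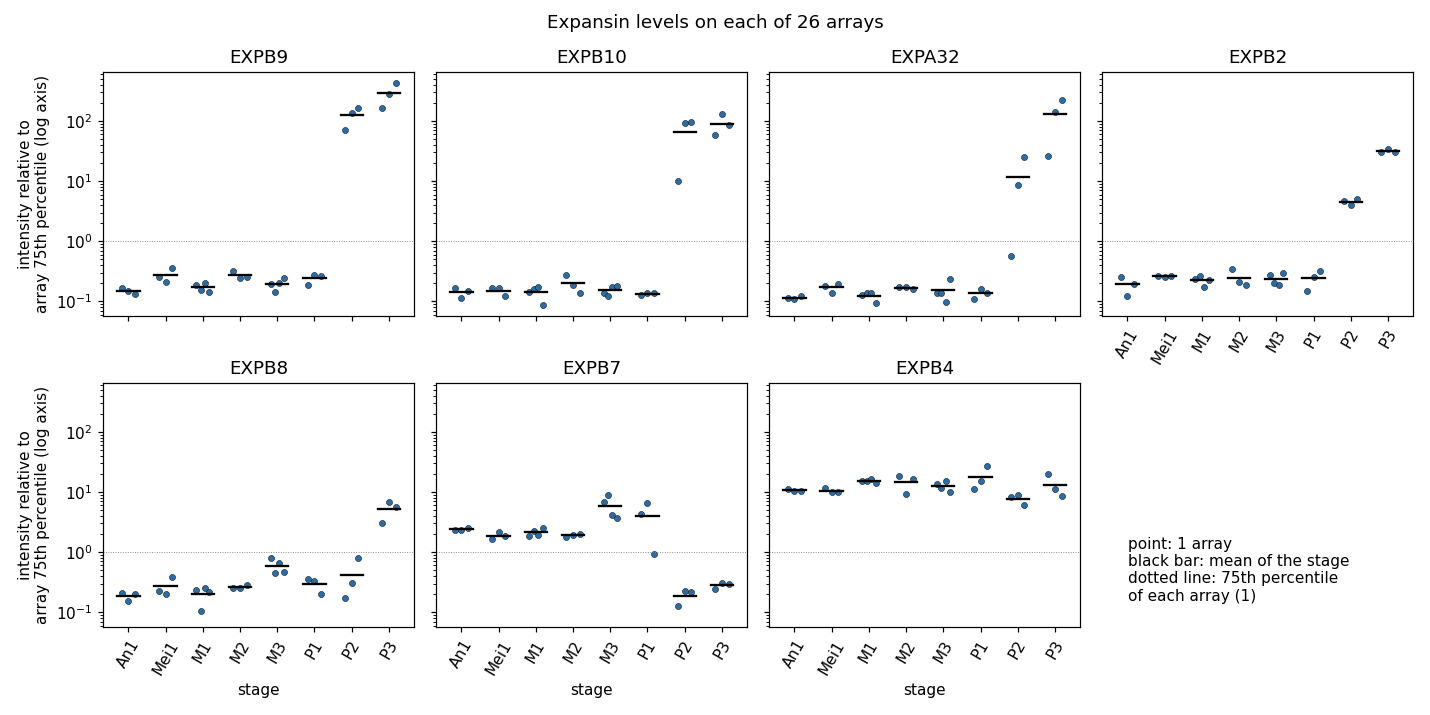
Level of each of the 7 expansins on the 26 arrays (log axis, intensity relative to the array's 75th percentile) by stage; points are arrays and black bars stage means. EXPB9, EXPB10, EXPA32 and EXPB2 lie at 0.353 or below on all arrays from An1 to P1 and rise in P2, while EXPB7 falls there and EXPB4 stays at 6.09 or above.

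EXPB9 changed from near the bottom of the scale to high levels in P2. From An1 to P1 its 20 arrays ran from 0.135 to 0.353 (median 0.205), and 18 of them were below the median of their array. In P2 it read 71.4, 138 and 163, and in P3 164, 286 and 429. The P2 and P3 arrays did not overlap, although the highest P2 array and the lowest P3 array almost met. The stage means were 124 ± 47.3 (SD, n = 3) in P2 and 293 ± 132 (SD, n = 3) in P3. On the log2(intensity + 1) scale the difference from P1 to P2 was 6.57 and that from P2 to P3 was 1.21. The first of these starts from a low level and depends on the pseudocount, being 4.84 with a pseudocount of 4 and 8.23 with 1 at the 20th percentile of intensities (0.149). Among the earlier stages, Mei1 arrays were all above An1 arrays and M2 arrays all above M1 arrays, at levels no higher than 0.353. Such gains were seen in 8.18% and 17.8% of probe sets. Between them, from Mei1 to M1, all arrays of EXPB9 and EXPA32 went down, as for 17.5% of probe sets.

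EXPB10 was at 0.0873 to 0.279 on the 20 arrays up to P1, all of them below the array median. It read 10.0, 92.6 and 94.5 in P2 and 57.5, 129 and 84.9 in P3. The stages P2 and P3 overlapped, and the means were 65.7 ± 48.2 (SD, n = 3) and 90.5 ± 36.1 (SD, n = 3). The P1 to P2 difference was 5.35 log2 units (3.63 and 7.30 with the same other pseudocounts) and the P2 to P3 difference 0.91. The low P2 value is that of replicate 1. Without that array the P2 mean was 103% of the P3 mean, against 72.6% with it, and the log2 difference from P2 to P3 was -0.12, so the order of these stages rests on that array.

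EXPA32, the alpha-expansin of the set, appeared later and more unevenly. Up to P1 it ran from 0.0929 to 0.232, below the array median on all 20 arrays. In P2 it read 0.561, 8.74 and 25.4, and in P3 26.1, 143 and 220. The P2 arrays spread over a wide range, and the lowest P3 array was just above the highest P2 array. The means were 11.6 ± 12.6 (SD, n = 3) and 130 ± 97.5 (SD, n = 3). The difference was 2.70 log2 units from P1 to P2 and 3.69 from P2 to P3. With the other pseudocounts the first was 1.53 and 4.26.

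EXPB2 rose in the same stages with little spread. It ran from 0.125 to 0.343 up to P1, read 4.75, 4.03 and 4.96 in P2, and 30.1, 33.8 and 30.4 in P3. The P2 mean of 4.58 ± 0.484 (SD, n = 3) and the P3 mean of 31.4 ± 2.03 (SD, n = 3) are well apart. The differences were 2.17 log2 units from P1 to P2 (1.01 and 3.61 with the other pseudocounts) and 2.54 from P2 to P3.

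EXPB8 was the latest. In P3 it read 3.01, 6.77 and 5.57 (mean 5.12 ± 1.92, SD, n = 3), above every other array of the series. In P2 it read 0.172, 0.311 and 0.787, and these arrays overlapped with P1. The P2 to P3 difference was 2.07 log2 units (1.02 and 3.27 with the other pseudocounts), and every P3 array lay above every P2 array, as for 28.5% of probe sets. EXPB8, EXPB9, EXPB2 and EXPA32, 4 of the 7, had all P3 arrays above all arrays of the other stages, as for 8.18% of probe sets. EXPB8 also had a small rise in M3, where its 4 arrays read 0.789, 0.452, 0.671 and 0.475. They were all above the M2 arrays (0.253 to 0.288), as for 9.08% of probe sets, and all above the P1 arrays (0.205 to 0.356), as for 8.18%.

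The P2 level as a percent of the P3 level set these 5 genes in an order. It was 72.6% for EXPB10, 42.3% for EXPB9, 14.6% for EXPB2, 8.92% for EXPA32 and 8.28% for EXPB8. Leaving out any 1 of the 6 arrays moved it between 56.7% and 103% for EXPB10, 34.7% and 55.1% for EXPB9, and 14.0% and 15.4% for EXPB2. The ranges of EXPA32 (3.59% to 13.7%) and EXPB8 (4.73% to 10.7%) overlapped, so these genes were not separated.

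Replicates of P2 and of P3 differed in the same way for several members. On P2 replicate 1 EXPB9, EXPB10, EXPA32 and EXPB8 had their lowest P2 level, and on P3 replicate 1 the same genes had their lowest P3 level. EXPB2 had its lowest P2 level on replicate 2, and its P3 arrays were nearly level. ADF1, an actin-depolymerizing factor, read 20.1, 52.0 and 57.7 in P2 and 40.001, 163 and 192 in P3. CPK21, a calcium-dependent protein kinase, read 0.215, 0.551 and 17.1 in P2 and 8.52, 113 and 182 in P3. Both markers were thus lowest on replicate 1 of each stage as well. The tapetum markers summed to 242 on P2 replicate 1 and to 154 and 149 on the other P2 arrays. That sum was mostly RTS (183, 129 and 121) and C6 (48.9, 19.1 and 21.8). CYP703A3, C4, PTC1 and CP1 read 0.623 or below on every P2 array. The part of these differences between arrays in the expansin levels was not tested.

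**Figure D2:**
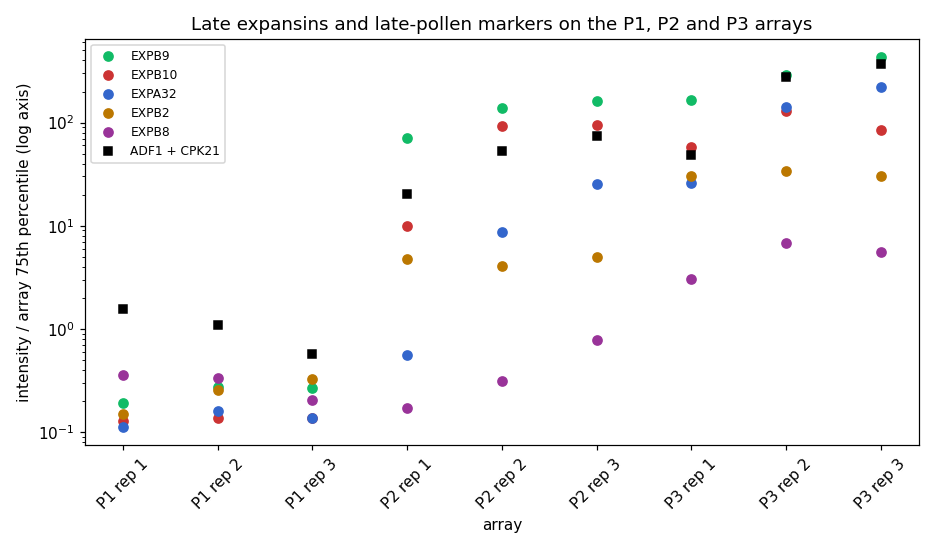
Levels of 5 expansins (circles) and the summed level of the late-pollen markers ADF1 and CPK21 (black squares) on the 9 arrays of P1, P2 and P3 (log axis). On replicate 1 of P2 and of P3 the markers, EXPB9, EXPB10, EXPA32 and EXPB8 are at their lowest for the stage.

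EXPB7 had its highest stage mean in M3. It read 2.36, 2.33 and 2.52 in An1, all above Mei1 (as for 5.29% of probe sets), and stayed between 1.63 and 2.56 from Mei1 to M2. In M3 it read 6.91, 8.75, 4.17 and 3.68, all above M2 (as for 9.08% of probe sets), with a mean of 5.88 ± 2.39 (SD, n = 4). In P1 it read 4.35, 6.503 and 0.927, a range that overlaps with every earlier stage. In P2 it read 0.128, 0.228 and 0.213 and in P3 0.244, 0.306 and 0.300, below the array median on all 6 arrays. These 6 arrays lay below all 20 earlier ones, as for 3.15% of probe sets, and every P2 array below every P1 array, as for 16.8%. The difference was 1.17 log2 units from M2 to M3 and -1.84 from P1 to P2 (-0.85 and -3.24 with the other pseudocounts). The low P1 value is that of replicate 3, the P1 array with the highest RTS and the lowest CYP703A3 level. The mean of the M1 to M3 stages exceeded that of the P1 to P3 stages by 1.07 log2 units with that array and by 0.88 without it.

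EXPB4 was present throughout. Its stage means ran from 7.79 ± 1.51 (SD, n = 3) in P2 to 17.8 ± 8.09 (SD, n = 3) in P1, and its 26 arrays from 6.09 to 26.8, a ratio of 4.40. Leptotene arrays read 15.5, 15.2, 16.4 and 14.1, all above the Mei1 arrays (11.6, 10.1 and 9.97), as for 8.71% of probe sets. The M2 arrays read 18.3, 9.42 and 16.5, and the low one is replicate 2, the array with the highest small heat shock level. The P1 arrays read 11.1, 15.4 and 26.8 and the P2 arrays 8.31, 8.97 and 6.09, which do not overlap. The P3 arrays (19.97, 11.1 and 8.41) overlapped with both. Of these, the highest is replicate 1, the other array on which small heat shock genes stood out. The highest P1 value is that of replicate 3. In the order of its stage means only P2, at the bottom, was separated from its neighbour. The mean over M1 to M3 was 0.24 log2 units above that over P1 to P3. The name of this probe set ends in _s_at, which on Affymetrix arrays marks probes that can match more than 1 transcript, so its level may include related transcripts.

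Over the mean of 3 stages each, meiosis (M1 to M3) minus pollen stages (P1 to P3) was -4.82 log2 units for EXPB9, -3.83 for EXPB10, -3.01 for EXPA32, -2.29 for EXPB2 and -0.72 for EXPB8. It was above 0 for EXPB7 and EXPB4. With a larger pseudocount of 4 the same quantity was -3.63, -2.68, -2.04, -1.36 and -0.35 for the 5 late genes, 0.46 for EXPB7 and 0.18 for EXPB4. All 7 members passed the filter on low values, and those that are near the bottom of the scale before P2 passed it through their late stages.

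Across the 26 arrays, which share their stages, EXPB9 and EXPB10 had the closest profiles (Pearson r = 0.988 on the log2 scale). EXPB9 and EXPB2 correlated at 0.950, and EXPB2 and EXPA32 at 0.945. EXPB8 was closest to EXPA32 (0.902). EXPB7 ran against the late genes, from -0.417 with EXPB8 to -0.788 with EXPB9, and EXPB4 correlated with no member above 0.225.

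The position of the genes was compared with their profiles, using the order of genes in RefSeq assembly ASM3414082v1. EXPB6, EXPB2, EXPB3 and EXPB4 follow each other with 0 genes between them, and EXPB8 and EXPB7 have 1 gene between them. The adjacent EXPB2 and EXPB6 both had their highest stage means in P3 and their next highest in P2. EXPB2 was near the bottom of the scale until P1, while EXPB4 was at 9.42 or above on the same 20 arrays. EXPB3, which is not among the 7, rose earlier: it read 1.24, 1.75, 2.32 and 2.58 in M3, against 0.415 ± 0.103 (SD, n = 3) in M2. It was at 5.83 ± 3.42 in P1, 7.13 ± 5.30 in P2 and 4.30 ± 2.49 in P3 (SD, n = 3 each). EXPB6, also outside the 7, was at 0.272 ± 0.150 in P1, 1.09 ± 0.493 in P2 and 2.83 ± 0.874 in P3 (SD, n = 3 each). EXPB7 was low in P3, where EXPB8 was highest. Both had all M3 arrays above all M2 arrays, as for 9.08% of probe sets, though EXPB8 read at most 0.789 in M3. The P2 arrays of EXPB3 read 13.2, 4.59 and 3.58, so its highest was on replicate 1, where the late genes other than EXPB2 were lowest.

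**Figure D3:**
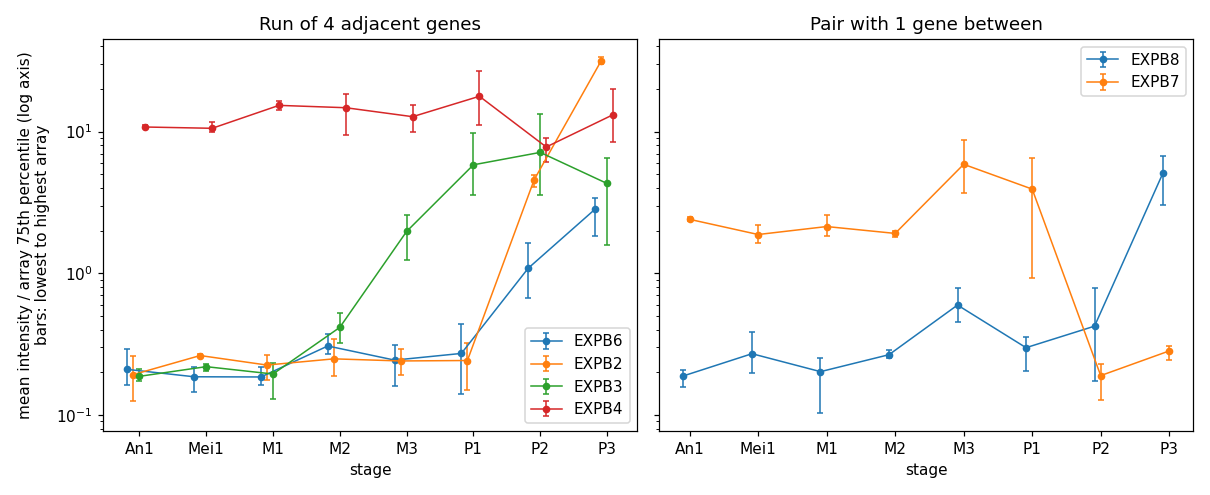
Stage means of neighbouring beta-expansin genes (log axis), with bars from the lowest to the highest array. In the run of 4 adjacent genes EXPB4 is high throughout, EXPB3 rises from M3, and EXPB2 and EXPB6 rise in P2 and P3; in the pair, EXPB7 is high up to P1 and EXPB8 in P3.

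The 22 other expansins were tested in a fit over all probe sets, and 18 passed the filter on low values. By the limma F test, 15 of the 18 changed over the 8 stages (adjusted p under 0.05, with a span of 1 log2 unit or more between the stage means), against 24.2% of all probe sets tested. These sets are unlike, since the 18 are the brightest probe sets of named genes and the background holds every probe set past the filter. By adjusted p alone the same test gave 17 of the 18 and 40819 of 47799 probe sets. The cell wall lists below differ from the background in the same way. Of the 22 genes, 6 were highest in An1, 1 in M1, 1 in M3, 3 in P1, 2 in P2 and 9 in P3, but 6 had stage means under 1 throughout. These 6 were EXLA4, counted in M3, and EXPA8, EXPA3, EXPB18, EXPA31 and EXPA4, all counted in P3 at means of 0.170 to 0.251. P3 replicates 2 and 3 also had the highest array medians (0.428 and 0.426), so the P3 count is partly one of genes near the bottom of the scale. For meiosis minus pollen stages 2 genes were higher in meiosis (background 2.45%) and 2 were higher in the pollen stages (background 3.3%). The list's median difference was 0.18 log2 units, against -0.03 over all probe sets tested.

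The genes higher in meiosis were EXPA5 and EXPB17. EXPA7 was just under the threshold of 1 (0.996, limma adjusted p = 1.41e-06). It was called with quantile normalization (1.12), with median-centred arrays (1.02) and in 8 of the 26 fits that left out 1 array. However, its P1 arrays (39.4 to 71.7) all lay above its M1, M2 and M3 arrays, the highest of which read 35.4. The difference rests on the low P2 and P3 levels (means 10.2 and 1.41). EXPA5 was at 45.1 ± 14.7 in An1 (SD, n = 3) and went down to 0.899 ± 0.313 (SD, n = 3) in P3. Its meiosis minus pollen difference was 2.33 log2 units (SE 0.23, limma adjusted p = 1.65e-08). EXPB17 went from 6.39 ± 0.315 (SD, n = 3) in An1 to 0.442 ± 0.0824 (SD, n = 3) in P2, with a difference of 1.13 (SE 0.06, limma adjusted p = 5.91e-13). Its second probe set stayed at 0.441 or below in its stage means, so the probe sets of this gene disagree. EXPA5 was named after its values were seen.

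The genes higher in the pollen stages were EXPA26 and EXPB3, both named after their values were seen. EXPA26, like EXPA32 an alpha-expansin, was at 0.247 ± 0.0650 in P1, 8.96 ± 7.66 in P2 and 21.6 ± 18.1 in P3 (SD, n = 3 each), with a difference of -2.001 (SE 0.34, limma adjusted p = 4.12e-05). Its P2 arrays read 0.509, 10.9 and 15.5 and its P3 arrays 3.42, 39.6 and 21.6, so replicate 1 was again the lowest in both stages. The difference of EXPB3 was -1.82 (SE 0.19, limma adjusted p = 6.68e-08). The probe set of EXPB3 ends in _a_at, and such probes can also match several transcripts. The EXPB3 difference was -0.95 with a pseudocount of 4, under the threshold of 1, as was that of EXPB17 (0.52).

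**Figure D4:**
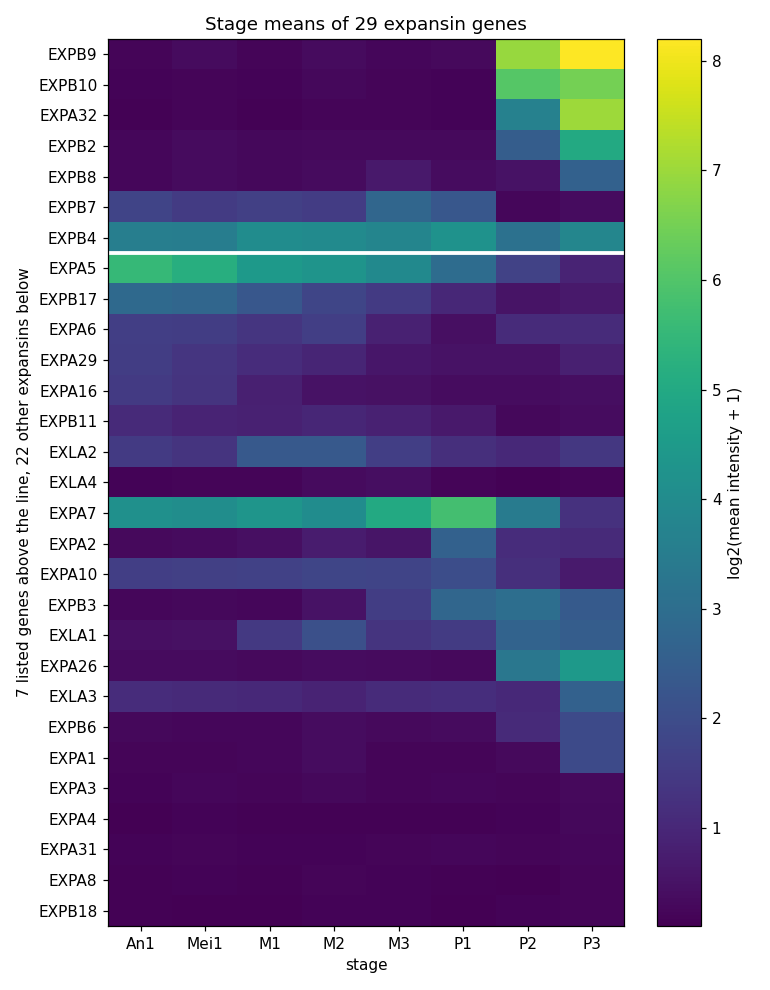
Stage means of the 29 expansin genes as log2(mean intensity + 1), with the 7 described genes above the white line and the 22 others below, ordered by the stage of their highest mean. Colours are to be compared along a row, since probe sets differ in response: EXPB9 is brightest in P3, EXPA5 in An1 and EXPA7 in P1.

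Changes of other expansins were then tested between consecutive stages. From P1 to P2, 2 of the 18 rose (background 3.23%) and 3 fell (background 2.24%), and from P2 to P3, 2 rose (background 4.22%) and 1 fell (background 4.07%). EXPA7 peaked in P1 at 53.6 ± 16.5 (SD, n = 3), while its 2 further probe sets stayed near the bottom of the scale. It fell by 2.34 log2 units to P2 (SE 0.24, limma adjusted p = 9.06e-08) and by 2.14 to P3 (SE 0.24, limma adjusted p = 3.91e-07). EXPA1 rose from 0.253 ± 0.153 in P2 to 2.80 ± 0.646 in P3 (SD, n = 3 each), by 1.59 log2 units (SE 0.09, limma adjusted p = 1.01e-11), and EXLA3 by 1.37 (SE 0.30, limma adjusted p = 8.39e-04). The P3 arrays of EXLA3 read 1.18, 6.92 and 7.47. Its P3 replicate 1 thus lay within the P2 range (0.728 to 1.64). EXPA26 rose from P1 to P2 by 2.42 (SE 0.62, limma adjusted p = 0.00547), a call that was lost without P2 replicate 3 (adjusted p = 0.0589). The expansin-like gene EXLA1 rose by 1.20 (SE 0.21, limma adjusted p = 1.36e-04). The falls of EXPA5 (-1.24, adjusted p = 0.0329) and EXPA2 (-1.17, adjusted p = 0.0344) were called by limma, but each lost its call without any 1 of 4 arrays. Of EXPA5 these were P1 replicates 1 and 2 and P2 replicates 2 and 3 (adjusted p = 0.111 to 0.173), and of EXPA2 P1 replicates 2 and 3 and P2 replicates 2 and 3 (0.0871 to 0.332). EXLA3, EXLA1, EXPA2 and, in this comparison, EXPA26 and EXPA5 were named after their values were seen.

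The earlier steps, up to P1, gave 3 calls. From Mei1 to M1 the expansin-like gene EXLA2 rose by 1.01 on the brighter of its 2 probe sets (SE 0.22, limma adjusted p = 0.00524; background 1.09%). That probe set is of the _x_at kind, whose probes can match other transcripts, and the other gave 0.96 (limma adjusted p = 0.00719), under the threshold of 1. From M2 to M3 EXPB3 rose by 1.05 (SE 0.33, limma adjusted p = 0.0374; background 1.06%), and from M3 to P1 EXPA2 rose by 1.64 (SE 0.37, limma adjusted p = 0.00747; background 0.59%). The EXLA2 change was under 1 without Mei1 replicate 2 (0.88) or M1 replicate 3 (0.84) and with array weights (0.91), and that of EXPA2 was 0.93 without P1 replicate 3. The EXPB3 call was lost without any 1 of 6 of the 7 arrays compared, M3 replicate 1 being the exception (adjusted p = 0.0556 to 0.133). EXPA16, EXPA6 and EXPB6, which changed over the stages by the F test, had meiosis minus pollen differences of 0.22, 0.39 and -0.78, under the threshold of 1. EXPA16 was highest in An1 (1.79 ± 0.0857, SD, n = 3), and EXPA6 was lowest in P1 (0.350 ± 0.0285, SD, n = 3).

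Other cell wall genes were listed by name. Of 9 cellulose synthase genes (CESA) 7 changed by the F test (background 24.2%), and 1 was higher in meiosis than in the pollen stages (background 2.45%), CESA6. The list's median difference was -0.10, against -0.03 over all probe sets tested. CESA6 went from 20.9 ± 0.775 in An1 to 0.880 ± 0.177 in P3 (SD, n = 3 each), with a difference of 2.21 (SE 0.13, limma adjusted p = 2.65e-12). From M3 to P1, 2 CESA genes rose by limma (background 0.59%). From P1 to P2, 4 CESA genes fell (background 2.24%) and 0 rose by limma (background 3.23%). In the step from P1 to P2, 7 of the 9 had an unadjusted p under 0.05, as did 30% of probe sets. CESA1 (difference 0.83) and CESA5 (0.83) did not reach the threshold of 1. Of 17 cellulose synthase-like genes (CSL) past the filter, 11 changed by the F test (background 24.2%). For meiosis minus pollen stages 3 were higher in the pollen stages (background 3.3%) and 0 in meiosis by limma (background 2.45%). In that comparison 13 had an unadjusted p under 0.05, as did 57.5% of probe sets. The list's median difference was 0.29, opposite in direction to the 3 calls. CSLH1 was one of them (3.03 ± 0.565 in P1 and 13.5 ± 3.03 in P3, SD, n = 3 each; difference -1.19, SE 0.09, limma adjusted p = 2.23e-10). CSLD4 (0.29) and CSLA9 (0.89) were not called in this comparison. From P1 to P2 CSLA9 fell (-1.69, SE 0.22, limma adjusted p = 3.05e-06; background 2.24%). In the same step CSLH1 rose (1.23, SE 0.16, limma adjusted p = 3.56e-06; background 3.23%). The 1 xyloglucan endotransglucosylase gene measured, XTH8, was higher in meiosis (background 2.45%; difference 1.08, SE 0.21, limma adjusted p = 2.31e-04). It also rose from P2 to P3 by 1.23 (SE 0.39, limma adjusted p = 0.0118; background 4.22%). Its P3 arrays ran from 1.59 to 7.69, a range that overlaps with those of M1, M2 and M3.

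The genes most like each member over the 26 arrays were taken from 2370 genes with a symbol. The correlations are descriptions, since the arrays share their stages. EXPB9 was most like CPS1 (LOC4329013, r = 0.996), ADF1 (LOC4330233, 0.994) and ADF-6 (LOC4336623, 0.986). CPS1, copalyl diphosphate synthase of gibberellin synthesis, was at 0.273 ± 0.309 in P1 and 37.2 ± 10.3 in P3 (SD, n = 3 each). EXPB10 shared ADF1 (0.988) and CPS1 (0.987) with it and was also like ADF-9 (LOC4343240, 0.986). EXPB2 was most like the calmodulin-like genes CML1 (LOC4327351, 0.988) and CML11 (LOC4324037, 0.974) and Rf2 (LOC4328996, 0.966). EXPA32 was most like the gene named osysl7 (LOC4328077, 0.996), NifU1 (LOC4351651, 0.996) and the calcium-dependent protein kinase gene CPK29 (LOC4351829, 0.995).

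EXPB8 was most like WNK3 (LOC4342585, 0.978), CPK9 (LOC4333767, 0.976) and PHO1-3 (LOC4341088, 0.964). PHO1-3 was at 0.286 ± 0.171 in P2 and 2.91 ± 1.40 in P3 (SD, n = 3 each). EXPB7 was most like LTD (LOC4343402, 0.907), AP25 (LOC4331874, 0.899) and the kinesin gene KIN4A (LOC4346402, 0.898). AP25, an aspartic protease of the tapetum, was at 123 ± 10.7 (SD, n = 4) in M3 and 0.174 ± 0.0263 (SD, n = 3) in P2. Its lowest P1 array read 27.2 and its highest 116. EXPB4 had weaker likeness to any gene, at most 0.739 with AGP1 (LOC4345858), then MS (LOC9268154, 0.685) and JAZ5 (LOC4335698, 0.674).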

How the data were processed

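Intensity values on a linear scale were deposited for 26 arrays. The 75th percentile of the deposited values is 1 on every array, so each array appears to have been divided by its 75th percentile. Per the submitters' processing notes GCOS 1.3 was used, with no step named; background settings and detection calls are not given in the sources used here. After 187 control and reporter probe sets were left out, 57194 remained, and 47799 (83.6%) were tested, those whose highest stage mean exceeded the 40th percentile of the log2 table. Values were analysed as log2(intensity + 1), which compresses changes of low levels. limma 3.58.1 in R 4.3.3 fitted 8 stage means over all arrays, with an intensity trend in eBayes. Calls needed a two-sided Benjamini-Hochberg adjusted p under 0.05 and 1 log2 unit (for the F test, stage means spanning 1 log2 unit). Where a gene had several probe sets, the one with the highest mean was used. On simulated data with a 1.5 log2 step from P1 to P2, 193 of 200 changed probe sets among 47799 were recovered with 0 false calls; the noise was independent between probe sets.

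The gene table names 1 gene for 22436 probe sets, several for 95 and none for 34663. Names came from RefSeq (assembly ASM3414082v1), where 49 expansins are named, 29 of them with a probe set. The members, lists and tests were chosen with earlier results of these data known. Named are all members, the 6 other expansins with the highest F, the 3 highest of each cell wall list and the 3 symbol-bearing genes most like each member; others are marked as named after their values were seen. A planned pectin methylesterase list had 0 measured genes. Marker lists were matched by symbol (germ cells and meiosis, tapetum, late pollen, green tissue). Sequences are not used here. Tables were made with pandas 2.3.3 and numpy 2.4.6 in Python 3.11.15, and plots with matplotlib 3.10.9. Deviations from the stage means of same-numbered P2 and P3 arrays correlated at r = 0.45, 0.16 and 0.54, and no label states a pairing. From M1 to M2 these values were 0.15, 0.19 and 0.09. Differently numbered arrays of different stages reached 0.41. The values of a pair of stages are not independent, since each stage's arrays deviate from their own mean, so a pairing is not established. Alternatives were other pseudocounts, filters, normalizations, variance settings, the replicate block, left-out arrays and left-out probe sets.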

Additional observations from a re-analysis of the deposited data

Results flagged for a closer look

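In M1, the EXPB17 level of replicate 4 (3.32) was set apart below the other 3 arrays of the stage. It was the 1 case among 26 groups of 4 arrays examined (the 7 genes and 6 other expansins in M1 and M3) in which the gap to the nearest array, 0.870 of the range, exceeded Dixon's 95% critical value of 0.829. Chance alone sets apart about 1 in 20 such groups.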

How the results depend on the processing

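The meiosis minus pollen differences of the members and the tested differences named for other expansins kept their sign under the alternatives run. Of the members' named differences between consecutive stages, recomputed with both other pseudocounts and without each array, that of EXPB10 from P2 to P3 (0.91) was -0.12 without P2 replicate 1. The pseudocount moved counts most, the log2 scale being compressed or stretched at low levels. With a pseudocount of 4, the F test called 5070 probe sets (against 11560), 356 were higher in meiosis (1173) and 672 in the pollen stages (1577). Of the other expansins 6 were then called by the F test (15), 1 was higher in meiosis (2) and 1 in the pollen stages (2). Over the 7 transitions 1 higher (7) and 2 lower (4) calls were made. From P1 to P2, 1 rose (2) and 1 fell (3), and from P2 to P3, 0 rose (2). Of the 7 members 0 were then higher in meiosis by 1 log2 unit (against 1, EXPB7). With the 20th percentile (0.149) as pseudocount, 20854 probe sets were called by the F test, 2597 were higher in meiosis and 2823 in the pollen stages. Of the other expansins 5 were higher in meiosis and 4 in the pollen stages, with 13 higher and 10 lower calls over the transitions. From P1 to P2, 4 rose and 5 fell, and from P2 to P3, 3 fell (1). Without probe sets that can match several transcripts, 1 other expansin was higher in the pollen stages.

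Leaving out 1 array at a time, the F test called 11089 to 12396 probe sets, 1134 to 1224 were higher in meiosis and 1459 to 1786 in the pollen stages. Members higher in meiosis numbered 0 to 1 (0 without P1 replicate 3), and those highest in P3 4 to 5 (4 without P2 replicate 1, where EXPB10 was highest in P2). Other expansins higher in meiosis numbered 2 to 3, and those higher in the pollen stages 2 to 3. Of the other expansins, 1 to 2 rose and 1 to 3 fell from P1 to P2, and 2 to 4 rose from P2 to P3. Over the transitions 6 to 9 were higher and 2 to 6 lower. Without P1 replicate 3, P2 replicate 1 and P3 replicate 1 together, an alternative chosen after seeing the data, 0 members were higher in meiosis by 1 log2 unit. Leaving out P2 and P3 replicate 1 together was also chosen then, and moved no count by over 1.5 times.

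Same-numbered arrays of different stages did not in general deviate together (r from -0.30 to 0.54 over 85 pairs, median -0.01). The highest value was between P2 and P3. With the number as a block over those 2 stages alone, added after seeing the data, no named call changed, and from P2 to P3 3 other expansins rose (2 without the block). With the replicate number as a block over all stages, the EXLA2 change from Mei1 to M1 was just under 1 and that of EXPB3 from M2 to M3 was 1.00 (limma adjusted p = 0.0801), and the other expansin differences named kept their side of the threshold. Other filters, normalizations and variance settings moved no count by over 1.5 times, but both other normalizations added EXPA7 to the genes called higher in meiosis. Using every probe set of a gene gave values only for the other expansins. Without detection calls, levels near the bottom of the scale cannot be told from background.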
